A study of Nothobranchius furzeri with 18 samples.

Results

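The genes described here copy and repair DNA. They are the 109 genes, of 25099 in the count table, whose names match patterns for the origin recognition, MCM and GINS factors, the replicative and translesion polymerases, the clamp and its loader, and the recombination, Fanconi, mismatch, excision, end-joining, PARP and telomere families. RNA was sequenced from primary fibroblasts grown from the tail of the turquoise killifish, Nothobranchius furzeri, an annual fish with a short life span, to compare vgll3 mutants with wild type. Vgll3 is a cofactor of TEAD transcription factors. The groups were fish homozygous for a mutation in exon 3 of vgll3 (Ex3, 3 cultures, with library names that carry the word null), fish homozygous for a mutation in exon 1 (Ex1, 3 cultures, with library names that carry the letters KD) and wild-type fish (WT, 4 cultures). No treatment is named in the labels, and all cells were primary cultures taken near confluence. Age, sex and strain are not stated there, and whether each culture stands for its own fish is not given either, so the p-values reflect the scatter of these samples, part of which may be technical. Libraries A and B of a culture were taken as technical replicates and summed, while WT F1 and WT F9 have 1 library each. The labels do not say whether F1 and F9 are separate cultures. They are counted as 2 of the 4 WT cultures here, and with their counts summed into 1 the number of members called stayed at 0 in each comparison and the median of Ex3 against WT was -0.08 on the log2 scale, against -0.10 with F1 and F9 apart.

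Replication starts when the origin recognition complex loads the MCM2-7 ring on DNA in G1. In S phase the ring is switched on by GINS and CDC45 and unwinds the helix, primase and polymerase alpha lay down primers, and polymerases delta and epsilon extend them, held to DNA by the sliding clamp PCNA that the RFC loader places. Many of these genes are known as E2F targets in mammals, and their RNA is higher in proliferating than in resting cells. Repair genes are divided by the lesion they handle, and several of them, such as BRCA1 and BRCA2, also protect stalled forks.

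Library totals were 18480697 to 25172664 counts in Ex3, 15236208 to 23582245 in Ex1 and 17915661 to 28146560 in WT. Members took 0.405% to 0.467% of the counts of a library in Ex3, 0.479% to 0.543% in Ex1 and 0.447% to 0.523% in WT. The targeted gene, vgll3, averaged 107 ± 10.3 CPM (counts scaled to library size and composition, with no correction for gene length) in Ex3, 245 ± 33.6 CPM in Ex1 and 306 ± 30.4 CPM in WT (SD, n = 3, 3 and 4 cultures). The Ex3 cultures lay below all others, and the Ex1 and WT ranges overlapped. An exonic mutation can leave the RNA level intact, so this count does not check the Ex1 labels. Of 10 fibroblast markers listed, 8 are in the file, with a summed level of 2626 to 6093 CPM in Ex3 libraries, 2738 to 6725 CPM in Ex1 libraries and 3068 to 3994 CPM in WT libraries. Of these, postn was at or near 0 in all genotypes (0 to 0.0234 CPM in Ex3, 0 to 0.0251 CPM in Ex1 and 0 in WT), and vim was low in all (0.0249 to 0.109 CPM in Ex3, 0.245 to 0.603 CPM in Ex1 and 0 to 0.178 CPM in WT). In Ex3 culture 3 the fibroblast markers moved apart. There col1a2 was the highest of all cultures (4994 CPM), while fn1, lum, pdgfra and twist1 were the lowest (117, 330.5, 101.1 and 9.655 CPM). Osteoblast markers (3 of 8 in the file) summed to 272 to 1439 CPM in Ex3, 162 to 666 CPM in Ex1 and 114 to 277 CPM in WT, the highest values being those of Ex3 culture 3. Pigment cell markers (3 in the file) also were highest there, at 118 and 109 CPM, against 30.2 CPM or less in every other library. The 2 libraries of Ex3 culture 3 and library 3A of Ex1 culture 3 stood apart from the rest in the members themselves, as described further on, and main results are given with and without them.

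**Figure D1:**
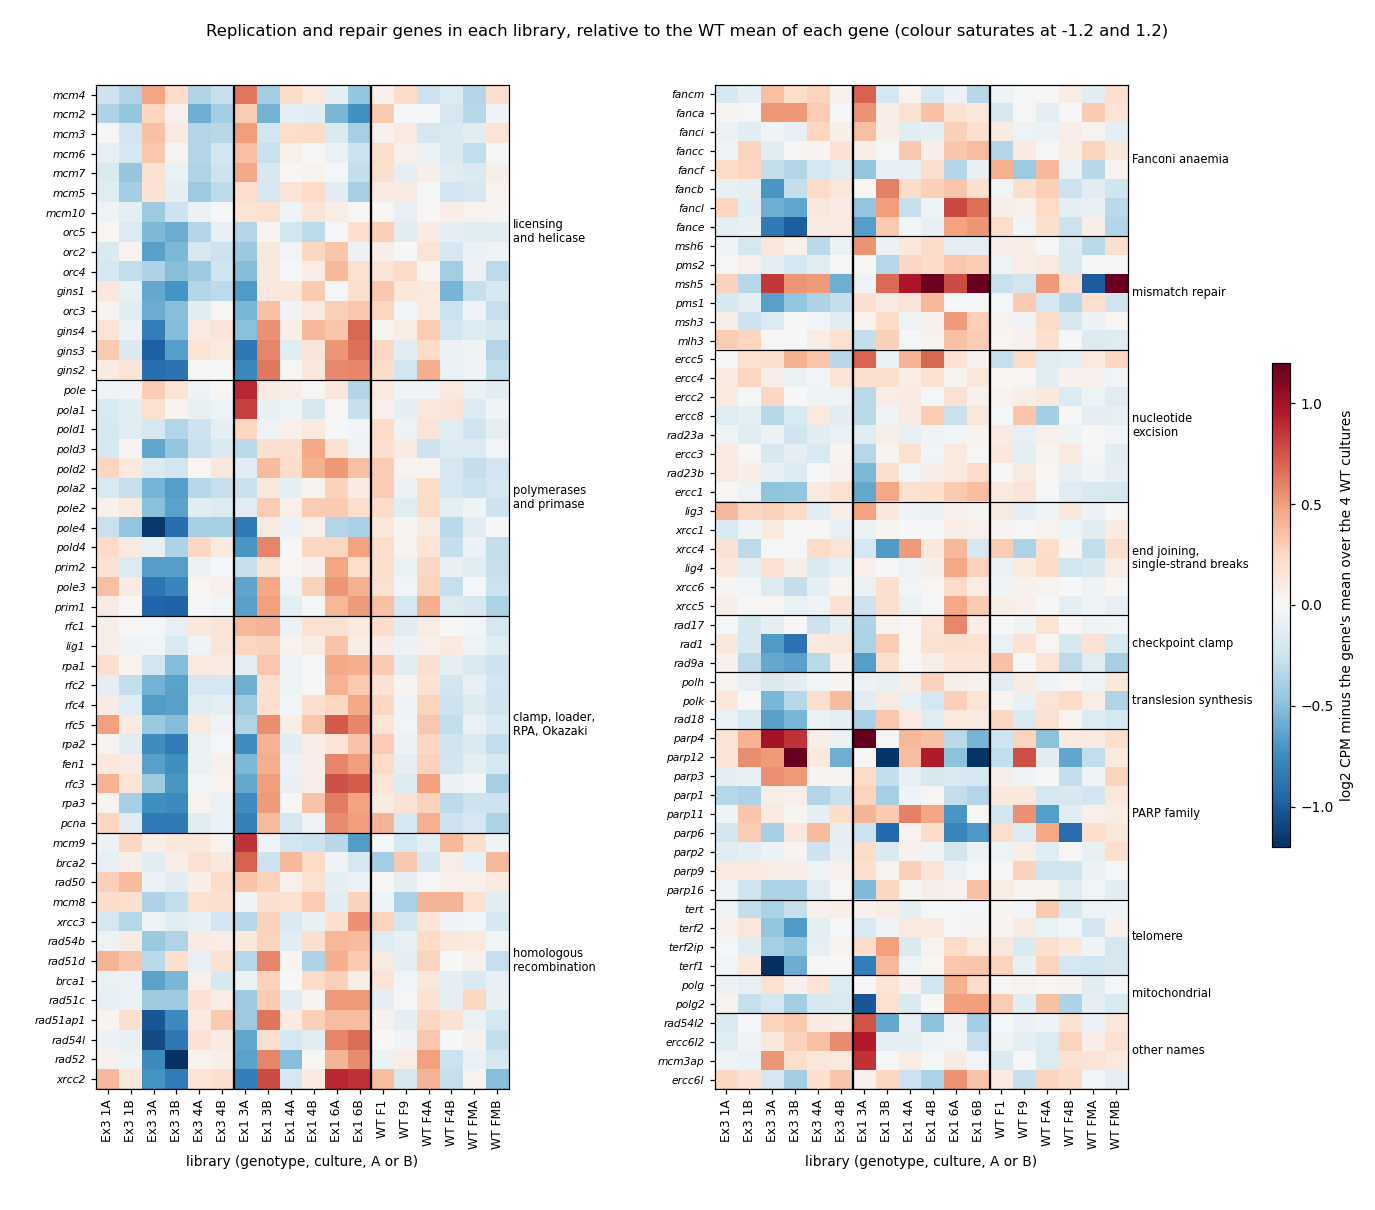
Heat map of members, 1 row per gene grouped by role, 1 column per library (Ex3, Ex1, then WT). Colour is log2 CPM minus the mean of the gene over the 4 WT cultures. The columns of Ex3 culture 3 and Ex1 library 3A are blue for most clamp, GINS and recombination genes, and in Ex3 3A and Ex1 3A mcm2 to mcm7 are red (medians 0.29 and 0.41). In Ex1 library 3B and Ex1 culture 6 the colours are reversed, with mcm2 to mcm7 medians of -0.25, -0.12 and -0.40.

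Between genotypes, no member passed the test. Of the 109 members, 108 had enough counts to be tested. The exception was rad9b, with 2 counts over all libraries. With edgeR's quasi-likelihood F test and Benjamini-Hochberg adjustment over all 16354 genes tested, 0 of 108 members were called at 0.05 in Ex3 against WT, where 0.238% of all genes were called. In Ex1 against WT the count was 0 of 108, against 0.159% of all genes. It was 0 of 108 in Ex3 against Ex1, against 0.0122%, and 0 of 108 for the mean of both mutants against WT, against 0.269%. DESeq2 also called 0 members in each, where it called 3.1% of all genes in Ex3 against WT, 1.55% in Ex1 against WT, 1.06% in Ex3 against Ex1 and 2.7% for the mean of both mutants. The count of members was again 0 in each with limma-voom, beside 0.196% of all genes in Ex3 against WT, 0.159% in Ex1 against WT, 0.00611% in Ex3 against Ex1 and 0.263% for the mean of both mutants. At an unadjusted p under 0.05 the members numbered 5 in Ex3 against WT, 1 in Ex1 against WT, 8 in Ex3 against Ex1 and 1 for the mean of both mutants. These counts are given again below by direction, beside the shares of all genes. In bulk RNA, fewer cells of a type and less RNA per cell cannot be told apart, which holds for every level given here.

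In Ex3 against WT the members lay slightly lower, and the shift lay in culture 3. Their median log2 fold change was -0.10, against 0.01 for all genes tested. Of the members 31 of 108 were above 0, or 28.7%, beside 51.5% of all genes. At an unadjusted p under 0.05, 5 members were lower, or 4.63%, and 0 were higher, while all genes gave 5.26% lower and 7.07% higher. The ranges of the cultures did not overlap for 7 members that were lower, or 6.48%, and for 0 that were higher, beside 6.87% and 6.99% of all genes. Both shares of lower members are near those of all genes. The members vary together, so these are not separate observations. Their median deviation from WT was -0.02, -0.28 and -0.01 in Ex3 cultures 1, 3 and 4. The median fold change was -0.01 without Ex3 culture 3.

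The smallest p in Ex3 against WT was that of pole4, a histone-fold subunit of polymerase epsilon, which copies the leading strand. It had 20.5, 12.65 and 20.0 CPM in Ex3 cultures 1, 3 and 4, 20.8, 26.2 and 20.5 CPM in Ex1 cultures 3, 4 and 6, and 29.1, 27.0, 24.7 and 24.7 CPM in WT cultures F1, F9, F4 and FM. All Ex3 values lay below all WT values, with culture 3 the lowest, and the Ex1 values overlapped WT. The log2 fold change in Ex3 against WT was -0.57 ± 0.17 (SE; edgeR adjusted p = 0.214), and that for the mean of both mutants was -0.40 ± 0.14 (adjusted p = 0.329). The gene pola2, the regulatory subunit of polymerase alpha, had 42.6, 32.5 and 40.5 CPM in Ex3, 46.6, 48.5 and 56.8 CPM in Ex1, and 61.6, 47.4, 50.45 and 42.05 CPM in WT. Its Ex3 range overlapped WT at the top and lay below all Ex1 values, and the fold change against WT was -0.39 ± 0.15 (edgeR adjusted p = 0.339). The gene orc4, a subunit of the origin recognition complex, had 10.1, 8.74 and 9.54 CPM in Ex3, 10.4, 12.2 and 14.5 CPM in Ex1, and 13.3, 14.0, 10.6 and 10.6 CPM in WT. The Ex3 cultures were the lowest 3 of the 10, by a margin smaller than the spread within WT, and the fold change against WT was -0.36 ± 0.16 (edgeR adjusted p = 0.393).

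In Ex1 against WT the members lay slightly higher. Their median log2 fold change was 0.10, against 0.02 for all genes. Of the members 89 of 108 were above 0, or 82.4%, beside 53.8% of all genes. The members vary together, so these are not separate observations. Only msh5 had an unadjusted p under 0.05 (0.926% of members, against 4.17% of all genes in the higher direction), and 0 were lower, against 4.31%. The ranges did not overlap for 2 members that were higher, or 1.85%, beside 4.92% of all genes, and for 0 that were lower, beside 4.37%. These 2 were ercc4, a subunit of the nuclease that cuts 5′ of a bulky lesion, and fancb, a Fanconi core complex gene named here after its values were seen. The median was 0.00 without Ex1 culture 6.

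The gene msh5, known for its part in crossover formation in meiosis, had 0.59, 0.961 and 0.5975 CPM in Ex3, 0.729, 1.25 and 1.375 CPM in Ex1, and 0.479, 0.496, 0.749 and 0.772 CPM in WT. Ex1 cultures 4 and 6 were above all others and Ex1 culture 3 was within the WT range. The log2 fold change in Ex1 against WT was 0.82 ± 0.35 (edgeR adjusted p = 0.563). These levels are near 1 CPM, and its labelled WT partner libraries FMA and FMB differed by 2.30 on the log2 scale. Its meiotic partner msh4 had the lowest mean level of the members tested, with 0.0275 to 0.578 CPM over the 10 cultures. The next smallest p values in Ex1 against WT were those of ercc5, the nuclease that cuts 3′ of a lesion (0.33 ± 0.15, edgeR adjusted p = 0.606), pold2, a subunit of polymerase delta (0.28 ± 0.15, adjusted p = 0.69), rfc5, a clamp loader subunit (0.34 ± 0.19, adjusted p = 0.708), and fanca of the Fanconi core complex (0.23 ± 0.14, adjusted p = 0.736). For each of these 4 the Ex1 and WT ranges overlapped.

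Set against each other, the mutants differed in 1 direction in most of these genes, Ex3 being the lower, though no single gene passed the test. The median log2 fold change of Ex3 over Ex1 was -0.18, against -0.01 for all genes. Of the members 16 of 108 were above 0, or 14.8%, beside 48.9% of all genes. At an unadjusted p under 0.05, 8 members were lower in Ex3, or 7.41%, beside 3.18% of all genes, and 0 were higher, beside 5.3%. The ranges of the 3 Ex3 and 3 Ex1 cultures did not overlap for 15 members that were lower in Ex3, or 13.9%, beside 5.04% of all genes, and for 0 that were higher, beside 6.18%. The members share the same libraries and vary together, so these 15 are not separate observations, and the difference between these shares was not tested. Ex1 culture 3 enters the count as the sum of libraries 3A and 3B, which differ widely, as described further on. The direction is not particular to these genes. Over 68 cytosolic ribosomal protein genes the median was -0.36 for Ex3 over Ex1, with 67 of 68 below 0. Against WT their medians were -0.17 in Ex3 and 0.18 in Ex1, and 0 of them were called.

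The smallest p belonged to the mismatch repair gene pms1. It had 16.75, 12.35 and 14.8 CPM in Ex3, 20.0, 22.3 and 18.6 CPM in Ex1, and 18.3, 23.05, 15.4 and 18.7 CPM in WT. Every Ex3 culture lay below every Ex1 culture, and the Ex3 and WT ranges overlapped. The log2 fold change of Ex3 over Ex1 was -0.47 ± 0.16 (edgeR adjusted p = 0.487), and that of Ex3 against WT was -0.37 ± 0.15 (edgeR adjusted p = 0.376).

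The smallest subunit of the single-strand binding complex RPA, rpa3, had 55.8, 36.4 and 61.1 CPM in Ex3, 60.4, 69.6 and 90.6 CPM in Ex1, and 66.25, 69.7, 62.4 and 51.55 CPM in WT. Ex3 culture 4 slightly exceeded the lowest Ex1 culture, so the ranges overlapped, and Ex1 culture 6 was the highest of all. The fold change of Ex3 over Ex1 was -0.52 ± 0.21 (edgeR adjusted p = 0.553). The tumour suppressor gene brca1, which acts in recombination and fork protection, had 30.6, 21.0 and 30.8 CPM in Ex3, 33.8, 34.7 and 36.5 CPM in Ex1, and 35.8, 31.6, 32.55 and 28.9 CPM in WT, so that the Ex3 cultures lay below the Ex1 cultures and overlapped WT (-0.35 ± 0.15 over Ex1, edgeR adjusted p = 0.575). For pola2 and orc4 the fold changes of Ex3 over Ex1 were both -0.39, with an SE of 0.16 each, and adjusted p values of 0.554 and 0.572. Ex1 culture 3 sums the unlike libraries 3A and 3B. In 3A alone, relative to the WT mean on the log2 scale, orc4 (-0.52) lay below every Ex3 library. There brca1 (-0.07) and pola2 (-0.27) lay within the range of the Ex3 libraries, and pms1 (0.20) above it. In 3B each of these genes lay above that range. In none of these genes did the distance between the mutants exceed the spread between cultures by enough to pass.

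**Figure D2:**
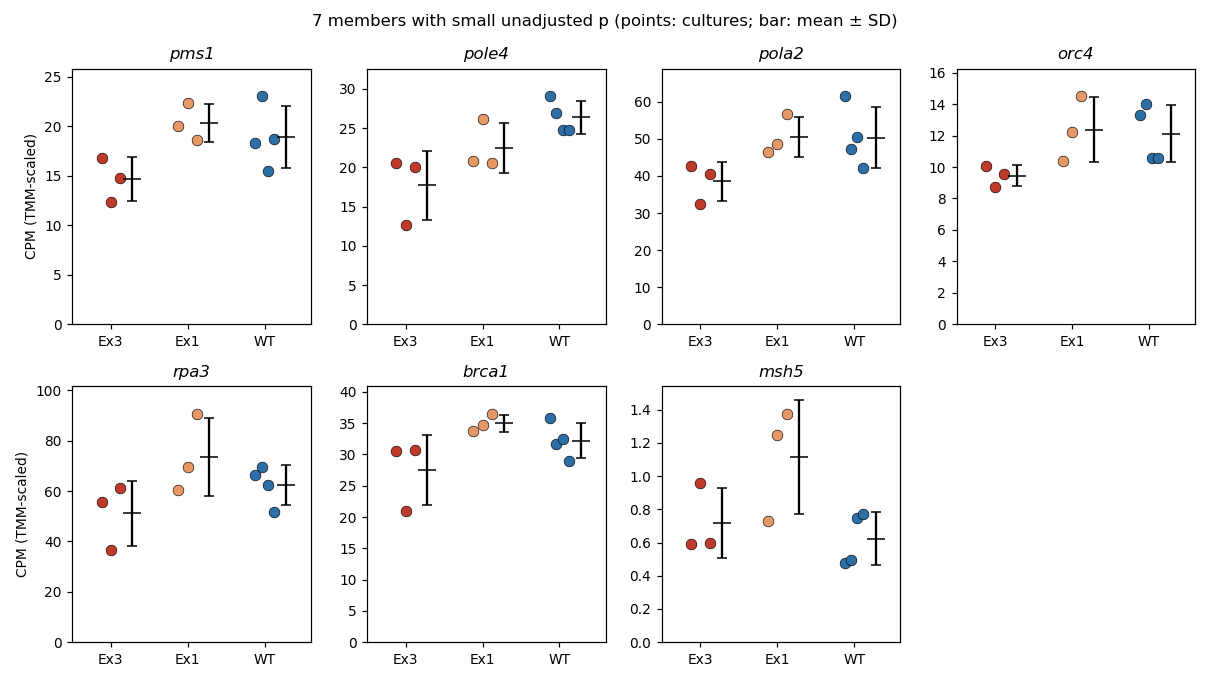
CPM of 7 members in each culture, by genotype (Ex3 left, then Ex1, then WT). Points are cultures and bars are the mean ± SD. In pms1, pola2, orc4 and brca1 the 3 Ex3 points lie below the 3 Ex1 points. The point of Ex1 culture 3 sums the unlike libraries 3A and 3B. In 3A alone only pms1 of these lay above every Ex3 library. In pole4 the highest Ex3 point and the lowest Ex1 point are level (20.53 and 20.54 CPM). The Ex3 points of pole4 and orc4 lie below the 4 WT points.

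For the mean of both mutants against WT the members were balanced. A total of 54 of 108 were above 0, or 50%, beside 52.3% of all genes, and the median was 0.00, against 0.01 for all genes. Only pole4 had an unadjusted p under 0.05 (0.926% of members lower, against 5.06% of all genes), and 0 members were higher, against 5.65%. After pole4 the smallest p values were those of fanca (0.23 ± 0.12, edgeR adjusted p = 0.539), ercc5 (0.23 ± 0.13, adjusted p = 0.588), msh5 (0.50 ± 0.30, adjusted p = 0.617) and pola2 (-0.19 ± 0.13, adjusted p = 0.647).

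**Figure D3:**
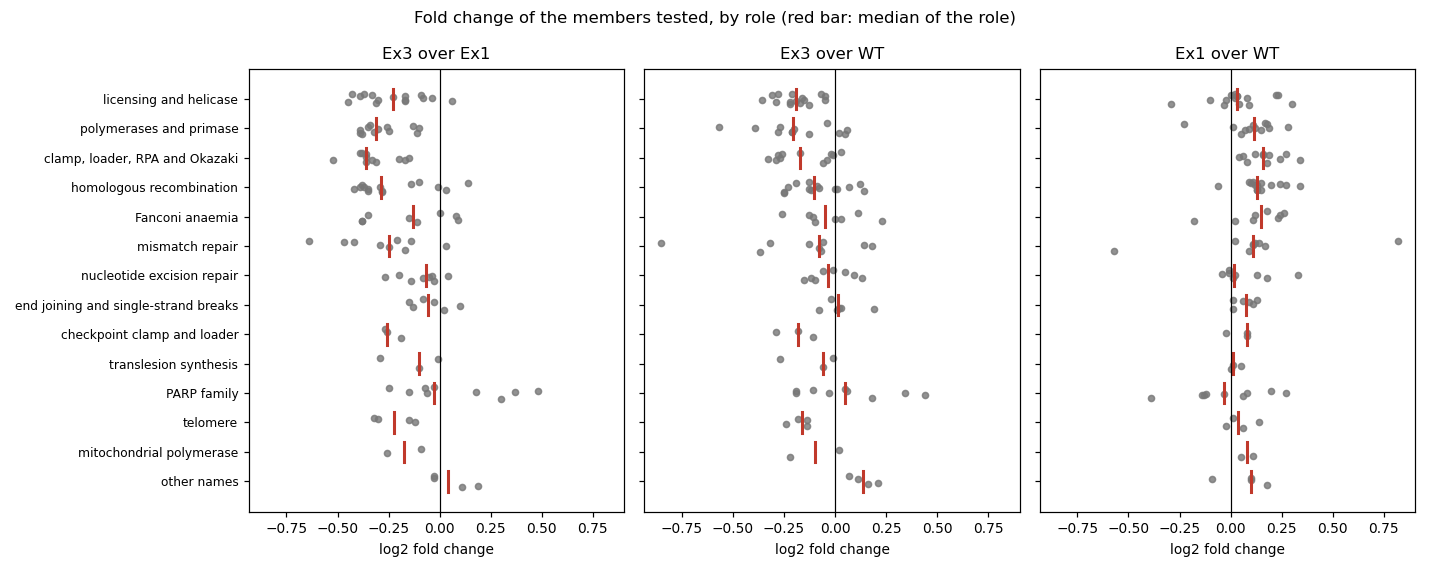
Log2 fold change of each of the 108 members tested (grey points), by role, for Ex3 over Ex1, Ex3 over WT and Ex1 over WT. Red bars are role medians, which for Ex3 over Ex1 run from -0.36 in the clamp and loader group to 0.04 in the 4 genes with other names.

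By role, the clamp group and the polymerase group had the most negative medians between the mutants, and several repair groups lay close behind. The 11 genes of the clamp, its loader, RPA and Okazaki fragment processing had a median log2 fold change of -0.36 for Ex3 over Ex1, with 11 of 11 below 0. Against WT they had medians of -0.17 in Ex3 and 0.16 in Ex1. These came mostly from single cultures. Relative to WT, the group's median was 0.05, -0.62 and -0.01 in Ex3 cultures 1, 3 and 4. In Ex1 cultures 3, 4 and 6 it was -0.02, -0.00 and 0.46. The 68 ribosomal protein genes had the same median of -0.36 for Ex3 over Ex1, where 48.9% of all genes were above 0. The 12 polymerase and primase genes had a median of -0.31 for Ex3 over Ex1, with 12 of 12 below 0, and the 14 homologous recombination genes one of -0.29, with 12 of 14 below 0. Next came the checkpoint clamp and loader genes (-0.26), mismatch repair genes (-0.25), licensing and helicase genes (-0.23) and telomere genes (-0.23). The median was nearer 0 for the 8 nucleotide excision repair genes (-0.06), the 6 end joining and single-strand break repair genes (-0.06) and the 9 PARP genes (-0.03). The genes of a role vary together, and differences between roles were not tested. None of these role counts holds a member that passed the test.

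Of the 15 licensing and helicase genes, 15 were below 0 in Ex3 against WT and 14 in Ex3 against Ex1, though none passed the test. Of all genes, 51.5% and 48.9% were above 0. The licensing and helicase genes share the same libraries, so they are not separate observations. The sizes of their fold changes are given here by complex, and differences between complexes were not tested. The 4 GINS subunits had a median of -0.40 for Ex3 over Ex1, with medians of -0.18 in Ex3 and 0.23 in Ex1 against WT. The 4 ORC subunits in the file under these names had -0.31, with -0.28 in Ex3 and 0.03 in Ex1 against WT. The 6 MCM2-7 subunits had -0.08 for Ex3 over Ex1, with -0.12 in Ex3 and -0.01 in Ex1 against WT. All 4 GINS genes and all 4 ORC genes were lower in Ex3 than in Ex1, as were 5 of the 6 MCM2-7 genes. The Ex3 cultures did not share these shifts. Relative to WT, the GINS median was 0.07, -0.78 and 0.06 in Ex3 cultures 1, 3 and 4. The ORC median was -0.06, -0.58 and -0.22. For MCM2-7 it was -0.28, 0.18 and -0.32, so culture 3 was the high one there.

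Along the main axis of variation in these genes, single cultures and libraries stood apart and the genotypes overlapped. In a principal component analysis of 107 members over the 18 libraries, the first component held 61.6% of the variance, and the next 8.69% and 6.32%. Libraries 3A and 3B of Ex3 scored -4.50 and -4.52 and Ex1 library 3A scored -4.11. At the other end Ex1 library 3B scored 3.26 and Ex1 libraries 6A and 6B 3.34 and 3.69. The other 12 libraries, of all 3 genotypes, lay between -1.46 and 2.12. Culture by culture, 55 of 108 members had their lowest level in Ex3 culture 3 and 51 had their highest in Ex1 culture 6.

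**Figure D4:**
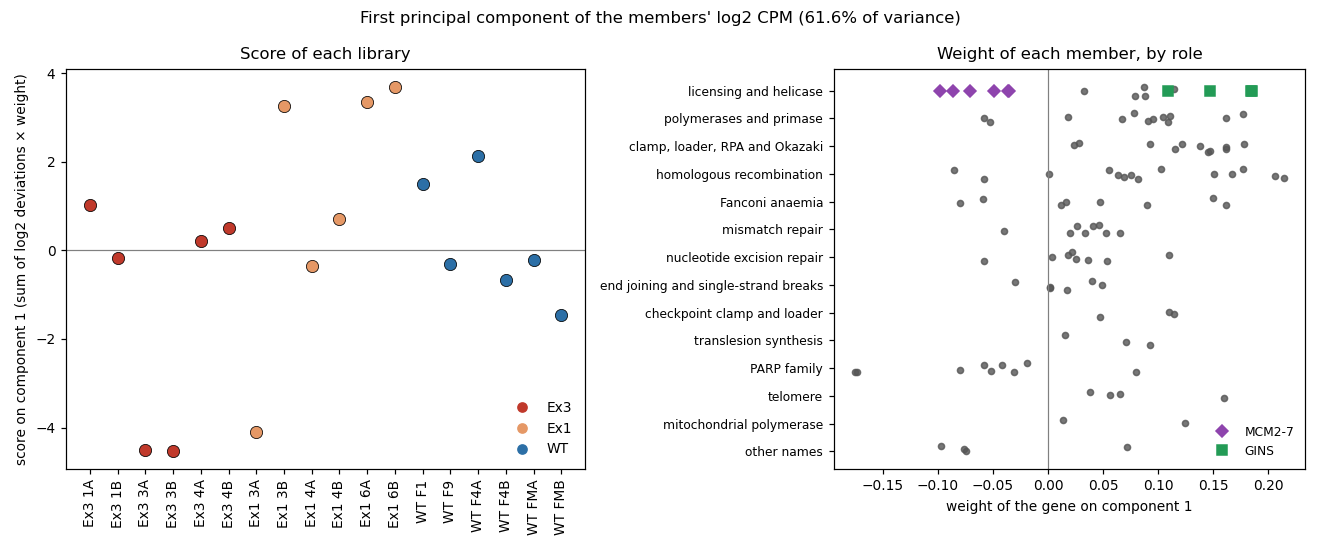
Left, score of each library on the first component of the members' log2 CPM, coloured by genotype (Ex3, Ex1, WT). Right, weight of each of 107 members on it, by role. Ex3 3A, Ex3 3B and Ex1 3A lie between -4.52 and -4.11, and all 6 MCM2-7 genes have negative weights while all 4 GINS genes have positive ones.

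On this component 81 members had weights of the same sign as pcna and 26 of the opposite sign. Large positive weights were those of xrcc2 (0.214), a homologous recombination factor, and of gins2, gins3 and pcna (0.185, 0.184 and 0.178). All 11 clamp, loader, RPA and Okazaki genes and all 4 telomere genes were positive. All 6 MCM2-7 genes were negative (-0.098 to -0.035), as were 8 of the 9 PARP genes. The signs of the MCM2-7 and GINS weights were the same under TMM, DESeq2-type and upper-quartile scaling.

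The clamp gene pcna, the member with the highest mean CPM, shows this pattern. It had 527, 272 and 463 CPM in Ex3 cultures 1, 3 and 4, 449, 450.5 and 722 CPM in Ex1 cultures 3, 4 and 6, and 659.9, 429.7, 543 and 407 CPM in WT cultures F1, F9, F4 and FM. Ex3 culture 3 was the lowest and Ex1 culture 6 the highest of the 10, and the genotypes overlapped (mean 420.5 ± 133 CPM in Ex3, 540.5 ± 157 CPM in Ex1 and 510 ± 116 CPM in WT; SD, n = 3, 3 and 4). The log2 fold change of Ex3 over Ex1 was -0.36 ± 0.29 (edgeR adjusted p = 0.73). In xrcc2 the values were 70.1, 33.4 and 65.7 CPM in Ex3, 63.6, 55.5 and 108 CPM in Ex1, and 74.7, 50.7, 62.1 and 50.6 CPM in WT. It was among the 3 most variable members with at least 5 CPM, as was parp4, and again Ex3 culture 3 and Ex1 culture 6 were the extremes. The same cultures were the lowest and highest for gins2 (20.55 and 58.5 CPM), which activates the MCM ring, for prim1 (34.5 and 94.4 CPM), the catalytic subunit of primase, for the flap endonuclease gene fen1 (44.4 and 106 CPM) and for the loader gene rfc3 (34.9 and 86.7 CPM).

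The helicase gene mcm2 went the other way. It had 189, 279 and 178 CPM in Ex3, 231, 228 and 161 CPM in Ex1, and 311, 249, 233 and 216 CPM in WT. Ex3 culture 3 was the highest of the 6 mutant cultures and Ex1 culture 6 the lowest of all, while the genotypes overlapped (mean 215.5 ± 55.5 CPM in Ex3, 207 ± 40.0 CPM in Ex1 and 252 ± 41.4 CPM in WT; SD, n = 3, 3 and 4). The ratio of pcna to mcm2 counts, which does not depend on library scaling, was 2.79, 0.972 and 2.6 in Ex3, 1.94, 1.97 and 4.5 in Ex1, and 2.12, 1.73, 2.34 and 1.89 in WT. The other MCM genes named by rule had values of 100.3, 123 and 93.3 CPM in Ex3, 118, 137 and 99.7 CPM in Ex1, and 129, 129.8, 111 and 112 CPM in WT for mcm5. For mcm7 they were 80.0, 102 and 80.1 CPM in Ex3, 107.5, 100.0 and 88.4 CPM in Ex1, and 113, 91.2, 96.3 and 93.5 CPM in WT. In both, Ex3 culture 3 was the highest Ex3 culture and Ex1 culture 6 the lowest Ex1 culture, in the order of mcm2 and against that of pcna.

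**Figure D5:**
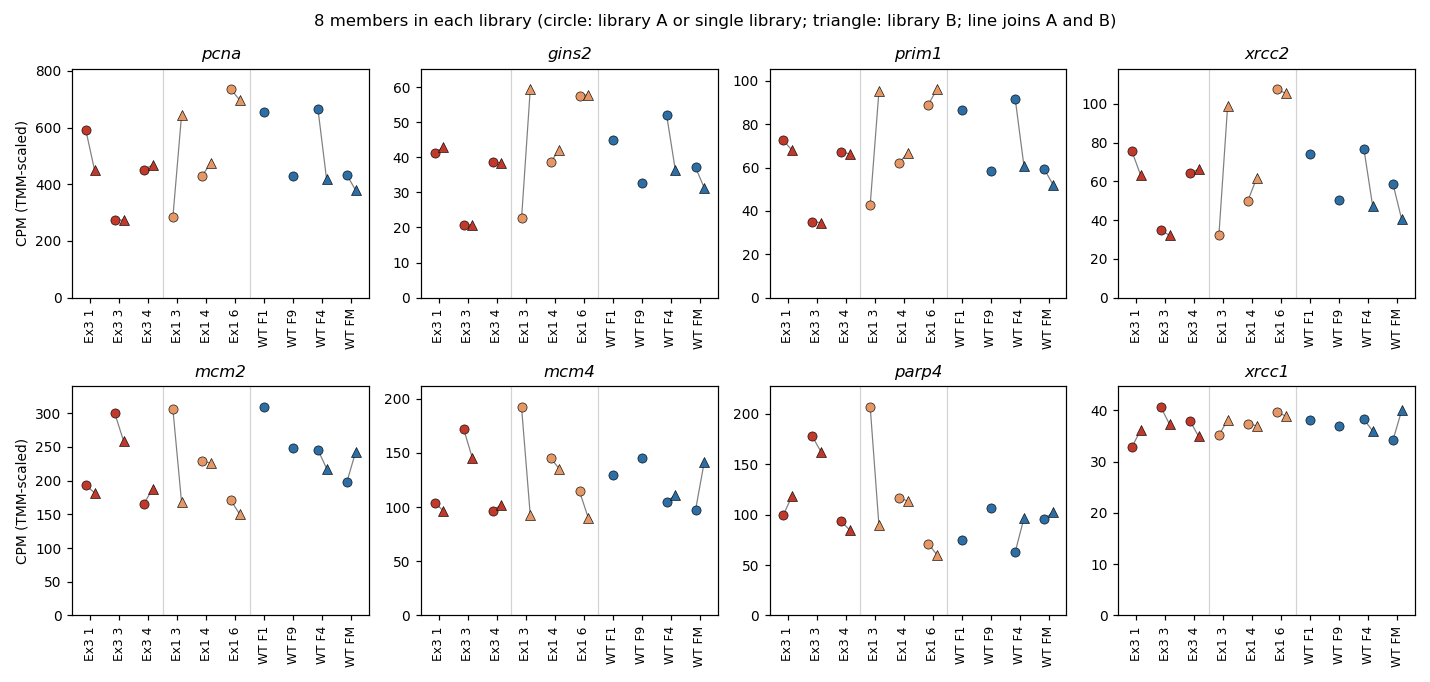
CPM of 8 members in each library, by culture (Ex3, Ex1, then WT). Circles are A or single libraries and triangles are B libraries. The pcna, gins2, prim1 and xrcc2 values are lowest in the libraries of Ex3 culture 3 and Ex1 3A, where mcm2, mcm4 and parp4 are high, and xrcc1 stays between 32.85 and 40.6 CPM.

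The technical replicates of Ex1 culture 3 were at opposite ends. Library 3A had 283 CPM of pcna, 42.9 of prim1 and 32.4 of xrcc2, and library 3B had 644, 95.2 and 98.9 CPM. For mcm2 the values were 306 CPM in 3A and 168 CPM in 3B, and for parp4, a vault-associated PARP, 207 CPM in 3A and 89.45 CPM in 3B. The median absolute difference between 3A and 3B was 0.63 on the log2 scale over 107 members, with 22 members over 2-fold, against 0.56 over all genes. In the other labelled pairs it was 0.10 to 0.14 in both mutants and WT FM, and 0.27 in WT F4. Over all genes it was 0.28 in WT F4 and 0.25 in WT FM, against 0.12 to 0.18 in the other mutant pairs. Pigment cell markers did not follow the WT labels, at 4.33 CPM in F4A, 22.5 in F4B, 20.6 in FMA and 4.45 in FMB. Whether the labels group these WT libraries by culture cannot be told. The level of Ex1 culture 3 is the sum of libraries that scored near Ex3 culture 3 (3A) and near Ex1 culture 6 (3B) on the first component. The likeness does not extend to all genes. Pigment cell markers were at 5.87 CPM in Ex1 3A, against 118 and 109 CPM in Ex3 culture 3. Whether 3A or 3B stands for Ex1 culture 3 cannot be told apart.

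Ribosomal protein genes were also lowest in the libraries of Ex3 culture 3 and in Ex1 3A. The median deviation of 68 cytosolic ribosomal protein genes from WT was -0.81 and -0.83 in the libraries of Ex3 culture 3, -0.80 in Ex1 3A, 0.65 in Ex1 3B and 0.32 and 0.56 in Ex1 culture 6 (log2). In the remaining libraries it was -0.06 to 0.36 in Ex3, -0.08 and 0.20 in Ex1 and -0.44 to 0.37 in WT, so Ex1 6A lay within the range of the others. Over 16 mitosis genes it was -0.20 and -0.40 in Ex3 culture 3, -0.15 in Ex1 3A, 0.67 in Ex1 3B and 1.05 and 0.98 in Ex1 culture 6, but also 0.69 and 0.70 in Ex3 culture 4, which scored mid-range in the members. WT libraries ran from -0.27 to 0.31 in the mitosis genes, so Ex1 3A and Ex3 3A were within their range and Ex3 3B was below it. Osteoblast markers were at 1439 and 1309 CPM in Ex3 culture 3, but at 293 and 162 CPM in Ex1 3A and 3B. Their part in the members' levels was not tested.

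Leaving out Ex3 culture 3 and Ex1 library 3A, a setting chosen after the data were seen, still gave 0 members called by edgeR in each comparison. Of all 16430 genes tested, 38 were called in Ex3 against WT and 91 in Ex1 against WT. The count was 6 in Ex3 against Ex1 and 55 for the mean of both mutants. Ex3 culture 3 and Ex1 library 3A were left out for their values in the members, while libraries at the opposite end were kept. The direction in which the members then move follows in part from that choice, and what follows is a description. In Ex3 against WT, 0 members were higher at an unadjusted p under 0.05, beside 4.82% of all genes, and 4 lower (3.7% of members, beside 4.87%). In Ex1 against WT, 13 were higher (12%, beside 7.89%) and 2 lower (1.85%, beside 9.38%). In Ex3 against Ex1, 3 were higher (2.78%, beside 7.74%) and 12 lower (11.1%, beside 5.64%). For the mean of both mutants against WT, 4 were higher (3.7%, beside 5.97%) and 4 lower (3.7%, beside 7.12%). Medians were -0.01 in Ex3 against WT, 0.12 in Ex1 against WT and -0.16 in Ex3 against Ex1. Without Ex3 culture 3 alone, the median was -0.01 in Ex3 against WT and -0.12 in Ex3 against Ex1, against -0.10 and -0.18 with all cultures. With Ex3 culture 3 and Ex1 library 3A both left out, the smallest p were those of gins4 in Ex1 against WT (0.43, edgeR adjusted p = 0.105), pole4 in Ex3 against WT (-0.39, adjusted p = 0.379) and rpa3 in Ex3 against Ex1 (-0.49, adjusted p = 0.248).

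The libraries left out had low GINS levels (medians of -0.87, -0.69 and -0.72 relative to WT) and MCM2-7 levels above the WT mean (0.29, 0.04 and 0.41), so leaving them out must lower the MCM2-7 medians and raise the GINS medians of the mutants. In this setting the MCM2-7 median fold change was -0.31 in Ex3 against WT and -0.14 in Ex1 against WT, and the GINS median 0.06 and 0.40. With all libraries the MCM2-7 medians were -0.12 and -0.01 and the GINS medians -0.18 and 0.23.

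Some repair genes were nearly level over the cultures. The least variable member with at least 5 CPM was xrcc1, the scaffold of single-strand break repair, with 34.6, 38.8 and 36.6 CPM in Ex3, 35.7, 37.3 and 39.7 CPM in Ex1, and 38.5, 37.2, 37.3 and 36.4 CPM in WT. The spread of its log2 level over the 10 cultures was 0.059 (SD), against a median of 0.235 for members and 0.272 for all genes tested. Next came parp2, which makes poly-ADP-ribose at breaks, and ercc4. The mismatch sensor gene msh6 varied more, from 57.6 to 76.5 CPM over the cultures (SD 0.139 on the log2 scale). So did the end joining genes xrcc5, which encodes Ku80, and lig4. They ranged from 44.1 to 61.1 CPM (SD 0.138) and from 13.8 to 19.6 CPM (SD 0.143).

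The catalytic subunits of the replicative polymerases overlapped between genotypes against WT. Polymerase alpha's pola1 had 51.3, 61.1 and 54.2 CPM in Ex3, 74.8, 52.5 and 51.7 CPM in Ex1, and 59.6, 52.7, 63.0 and 52.5 CPM in WT. Polymerase epsilon's pole had 51.5, 61.8 and 52.5 CPM in Ex3, 75.8, 54.7 and 48.8 CPM in Ex1, and 57.7, 51.2, 54.5 and 48.9 CPM in WT. In both, culture 3 was the highest of its genotype in Ex3 and in Ex1, unlike in pole4 and pola2, where culture 3 was the lowest Ex3 culture. In Ex1 this came from library 3A. Relative to the WT mean (log2), pola1 was 0.82 in 3A and -0.09 in 3B, and pole 0.90 and 0.10. The 3B values were within the range of Ex1 cultures 4 and 6. Polymerase delta's pold1 had 39.7, 36.5 and 39.3 CPM in Ex3, 46.5, 47.1 and 44.2 CPM in Ex1, and 52.4, 42.5, 44.6 and 38.6 CPM in WT, so that the Ex3 cultures lay below the Ex1 cultures and overlapped WT. DNA ligase 1, lig1, which seals Okazaki fragments, ranged from 75.9 to 85.7 CPM in Ex3, from 85.4 to 95.55 CPM in Ex1 and from 75.7 to 87.8 CPM in WT. The RPA subunit gene rpa2 ranged from 60.5 to 103 CPM in Ex3, from 98.5 to 128.5 CPM in Ex1 and from 89.7 to 131 CPM in WT.

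The following genes of the other roles likewise overlapped between Ex3 and WT and between Ex1 and WT. The recombination gene rad54l, a translocase, had 11.3 CPM in Ex3 culture 3, 35.3 CPM in Ex1 culture 6 and 19.4 to 25.3 CPM in the other cultures. The recombination mediator gene brca2 ranged from 19.2 to 22.3 CPM in Ex3, from 18.3 to 25.0 CPM in Ex1 and from 15.1 to 24.9 CPM in WT. The Fanconi gene fanci, which pairs with FANCD2 at crosslinks, ranged from 33.3 to 40.0 CPM in Ex3, from 32.6 to 42.3 CPM in Ex1 and from 34.2 to 38.3 CPM in WT; RefSeq places it over polg, so their counts are uncertain without strand. The gene fanca had its highest level in Ex3 culture 3 (41.9 CPM), and ranged from 25.96 to 36.1 CPM in the other cultures. The telomerase gene tert averaged 10.4 ± 1.53 CPM in Ex3, 11.3 ± 0.358 CPM in Ex1 and 11.45 ± 0.548 CPM in WT (SD, n = 3, 3 and 4). The shelterin gene terf1, which binds telomeric repeats, was lowest in Ex3 culture 3 (4.15 CPM) and between 6.77 and 10.0 CPM elsewhere, and terf2 was lowest there too (17.0 CPM, against 22.8 to 27.4 CPM elsewhere). The abundance of parp1, the main break-sensing PARP, was 63.0, 82.9 and 64.9 CPM in Ex3, 76.3, 78.9 and 64.5 CPM in Ex1, and 87.6, 87.6, 69.6 and 75.8 CPM in WT. The translesion polymerase genes polh and polk ranged from 12.1 to 15.3 CPM and from 9.49 to 16.2 CPM. The nucleotide excision genes ercc1 and rad23b ranged from 7.87 to 14.2 CPM and from 96.3 to 125 CPM.

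Replication and repair genes outside the name patterns had no call either. Of 109 further genes of these pathways, 0 passed the test in any comparison, with medians of -0.11 in Ex3 against WT, 0.06 in Ex1 against WT and -0.16 in Ex3 against Ex1. At an unadjusted p under 0.05, 6 of 109 were lower in Ex3 against WT, a share near the 5.26% of all genes, and 0 were higher, beside 7.07%. The smallest p was that of exo1, the exonuclease of mismatch repair and end resection, with 17.0, 13.8 and 15.2 CPM in Ex3, 20.1, 22.5 and 20.0 CPM in Ex1, and 21.1, 20.7, 23.9 and 21.5 CPM in WT. All Ex3 cultures lay below all others (log2 fold change against WT -0.51 ± 0.11, edgeR adjusted p = 0.0995; over Ex1 -0.45 ± 0.11, adjusted p = 0.319). The file also holds 11 LOC numbers whose RefSeq name fits the patterns, among them fancd2, orc1 and polq. Of these 10 were tested and 0 were called.

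Regulators of S phase entry and the mitotic genes did not pass either. Among 22 E2F, RB and G1/S genes tested, the smallest p was that of cdkn1b, which encodes a CDK inhibitor, at 9.38, 8.58 and 9.39 CPM in Ex3, 7.74, 7.32 and 7.26 CPM in Ex1, and 11.8, 10.0, 13.2 and 10.5 CPM in WT. All mutant cultures lay below all WT cultures, and the Ex1 cultures below the Ex3 cultures (-0.32 ± 0.13 in Ex3, adjusted p = 0.34, and -0.61 ± 0.13 in Ex1, adjusted p = 0.146, edgeR). The 16 mitosis genes had medians of 0.29 in Ex3 and 0.48 in Ex1 against WT, with 16 of 16 above 0 in each and 0 called. Of all genes, 51.5% and 53.8% were above 0. The cultures of a genotype differed in the mitosis genes. Their median deviation from WT was 0.40, -0.33 and 0.69 in Ex3 cultures 1, 3 and 4. It was 0.28, -0.07 and 1.05 in Ex1 cultures 3, 4 and 6, and -0.27 to 0.22 in WT cultures. Both mutants share the same WT cultures, so the signs against WT are not independent. Among 8 p53 pathway genes 0 were called, and the smallest p was that of tp53inp1 in Ex3 against WT (0.84 ± 0.29, edgeR adjusted p = 0.286). Its level was 6.275, 13.22 and 6.124 CPM in Ex3 cultures 1, 3 and 4, and 3.702 to 5.855 CPM in WT, so Ex3 culture 3 stood apart here too.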

How the data were processed

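The deposited values are whole-number read counts per gene in 18 libraries, which the authors had not normalized. Per the submitters' processing notes, the tools named, without role or order, were STAR 2.7.6a, edgeR 3.32.1, cutadapt 3.4, Trim Galore 0.6.4 and FastQC 0.11.8. Strand use, annotation and genome build are not stated in them, so counts of overlapping genes (fanci with polg, for example) and of paralogs are uncertain. Intervals of levels are SDs between cultures.

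Counts were summed per culture (10 cultures), filtered with filterByExpr (16354 genes), scaled by TMM and fitted for all genotypes in 1 model with edgeR 4.0.16 (quasi-likelihood F test, robust, BCV 0.248, R 4.3.3), p-values being adjusted by Benjamini-Hochberg over every gene tested, at a threshold of 0.05. SE is the absolute log2 fold change over the square root of F. The method was tested on simulated data, with changes larger than those measured in any member. The simulated counts had the same BCV in every gene, below the one fitted here, and no variation shared by the genes of a culture. The method was not tested for changes of the members' size, nor for such shared variation. Alternatives included DESeq2 1.42.0 and limma 3.58.1. Named were the members past the test, the 5 with the smallest p per comparison, 37 fixed genes (33 in the file), the 3 most and 3 least variable, and the lowest and highest. Members and lists were chosen with earlier results of these data known. RefSeq matched 101 of 109 members by symbol. Some members that this rule names are counted but not reported here by name.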

Additional observations from a re-analysis of the deposited data

Results flagged for a closer look

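Among 48 named members, 1 had a WT culture past an outlier limit, by a small difference in level. The gene polg, which encodes the catalytic subunit of the mitochondrial DNA polymerase, had 30.58 CPM in WT FM, against 32.97 to 33.46 CPM in the other WT cultures. The gap took 0.832 of the range of the group, just past Dixon's critical value for 4 values. Chance alone marks about 1 in 20 groups in this way, and 1 in 48 is below that share. The gene polg also overlaps fanci on the genome.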

How the results depend on the processing

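Over 26 other settings, members called stayed at 0 in every comparison except 1. With the 18 libraries taken as separate samples, 1 member was called in Ex3 against Ex1, pms1 (-0.48, edgeR adjusted p = 0.0486). In that comparison and setting 278 of all 15236 genes tested were called. That setting counts technical replicates as samples, and over all settings the adjusted p of pms1 ran from 0.0486 to 0.906. Leaving out 1 culture at a time, the median of members in Ex1 against WT was 0.00 to 0.13, reaching 0.00 without Ex1 culture 6, with -0.13 to -0.01 in Ex3 against WT and -0.23 to -0.12 in Ex3 against Ex1. The median for the mean of both mutants ran from -0.04 to 0.08 over all settings; no other median and none of the fold changes of the 5 members with the smallest p per comparison turned its sign. Numbers 3 and 4 occur in both mutants, and the deviations of cultures that share a number correlated at 0.23 and -0.15. Ex1 culture 3 sums the unlike libraries 3A and 3B, so this value cannot decide whether it is linked to Ex3 culture 3. With the replicate block 0 members were called, and the medians were 0.18 in Ex1 against WT and -0.18 in Ex3 against Ex1. Counts over all genes moved with the setting, from 5 to 567 in Ex3 against WT (39 as reported), 5 to 342 in Ex1 against WT (26), 1 to 278 in Ex3 against Ex1 (2) and 1 to 497 for the mean of both mutants (44); with WT F1 and F9 summed they were 12 in Ex3 against WT, 20 in Ex1 against WT, 2 in Ex3 against Ex1 and 32 for the mean. With the WT libraries regrouped by on/off genes they were 6 in Ex3 against WT and 6 in Ex1 against WT. Regrouped by level steps, the WT libraries gave 5 and 12. A search of promoters for E2F motifs was not run, since no promoter sequence was used here. Depth limits msh4, msh5 and rad9b.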
